A study of Homo sapiens with 4 samples.

Results

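In an RNA-Seq experiment on FaDu cells, 10 genes that encode subunits of cytochrome c oxidase were followed: COX4I1, COX4I2, COX6A1, COX6A2, COX6B1, COX6B2, COX7A1, COX7A2, COX8A and COX5B. They were found by symbol on chr chromosomes and account for 10 of the 62077 rows of the expression table. The set was chosen by family, and partly selected on the high hypoxia FPKM of COX6B2, so those values and everything drawn from the same contrast are given as a description. FaDu is an established epithelial line derived from a hypopharyngeal squamous cell carcinoma. Lentiviral short hairpin RNAs, either scrambled (scr) or against TET1 (TET1-si), were introduced by the study. Cells stayed in normoxia or went through hypoxia for 19 h at 1% oxygen, with 5% CO2 in all groups. The scrambled groups N-scr and H-scr and the TET1-si groups N-si and H-si had 1 library each. Differences between groups are thus differences between single libraries, without p-values.

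Cytochrome c oxidase, or complex IV, is the terminal enzyme of the mitochondrial respiratory chain, where it passes electrons from cytochrome c to oxygen and pumps protons. Its catalytic core is encoded by mitochondrial DNA and is surrounded by small subunits encoded in the nucleus. Several of these exist as paired isoforms that differ by tissue or by oxygen supply: COX4I2 is known as a lung and hypoxia isoform, COX6A2 and COX7A1 as heart and skeletal muscle isoforms, and COX6B2 as a testis isoform of the subunit that binds on the intermembrane side.

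The findings turn on the COX6B pair, so its coding sequences are shown first. They were read from the GENCODE canonical transcripts on GRCh37. COX6B1 is encoded on chromosome 19 between 36142146 and 36149546 on the plus strand, in 3 coding exons. COX6B2 is encoded on the same chromosome between 55865092 and 55865889 on the minus strand, also in 3 coding exons. Capitals mark bases that differ from the partner, or have no partner, after the 2 proteins were aligned.
COX6B1: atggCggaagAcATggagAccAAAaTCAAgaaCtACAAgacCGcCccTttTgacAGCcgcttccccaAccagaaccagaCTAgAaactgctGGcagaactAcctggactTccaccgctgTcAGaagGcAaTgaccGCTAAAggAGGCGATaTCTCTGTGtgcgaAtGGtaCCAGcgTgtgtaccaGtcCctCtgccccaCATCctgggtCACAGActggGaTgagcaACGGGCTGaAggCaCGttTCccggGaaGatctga
COX6B2: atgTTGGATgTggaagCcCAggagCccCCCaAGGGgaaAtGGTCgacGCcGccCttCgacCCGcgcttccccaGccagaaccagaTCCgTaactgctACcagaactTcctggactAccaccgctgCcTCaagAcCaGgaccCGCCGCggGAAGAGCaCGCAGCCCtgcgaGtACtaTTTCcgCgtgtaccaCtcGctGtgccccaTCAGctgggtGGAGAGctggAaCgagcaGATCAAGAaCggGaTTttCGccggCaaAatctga
The proteins have 86 and 88 residues, and 47 of the 86 aligned residues (54.7%) were identical. Of the aligned coding bases 61.2% were identical. The longest run of bases shared by the 2 full transcripts was 11, well under the read length of 100 bp. The other pairs were about as far apart in protein sequence, with 51.2% identical residues between COX4I2 and COX4I1, 64.2% between COX6A2 and COX6A1 and 54.4% between COX7A1 and COX7A2. Their longest shared runs were 20, 9 and 11 bases.

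The depth recovered from the values lay between 22500000 reads (H-si) and 24400000 reads (N-si and H-scr). TET1, the knockdown target, was listed at an FPKM (fragments scaled by exon length and by mapped reads) of 0.129 in N-scr against 0.331 in H-scr, and 0.0493 in N-si against 0.122 in H-si, and was thus lower in both TET1-si libraries. All 6 squamous epithelial markers were present, with KRT5 between 524 and 3992 FPKM. Their summed FPKM was 4995 in N-scr against 8050 in H-scr, and 2058 in N-si against 4843 in H-si. KRT5 and KRT17 were the 2 highest in every library, and the markers did not all follow the sum. With hypoxia 5 of the 6 were higher in each knockdown state, and EPCAM was lower. With TET1-si 3 were lower under hypoxia and 4 under normoxia, while CDH1 and EPCAM were higher in both. An exact 0 in the table can be a failed estimate. PAICS, a purine synthesis enzyme that dividing cells use, was at 176 FPKM in N-scr and was listed at 0 in H-scr.

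Of the 10 members 6 lay between 123 and 551 FPKM in every library, and 4 were low or not detected. COX4I1 (chromosome 16, 85832239 to 85840650, plus strand, hg19 here and below), which encodes the common form of the largest nuclear subunit, had 551 FPKM in N-scr against 443 in H-scr, and 502 in N-si against 392 in H-si. COX7A2 (chromosome 6, 75947391 to 75960039, minus strand), the common form of subunit 7A, had 472 in N-scr against 397 in H-scr, and 395 in N-si against 275 in H-si. Both were highest in N-scr and lowest in H-si. COX6A1, the common form of subunit 6A, had 467 FPKM in N-scr against 499 in H-scr, and 319 in N-si against 277 in H-si. COX6B1 had 306 in N-scr against 240 in H-scr, and 163 in N-si against 123 in H-si. Both were lower in each TET1-si library than in the scrambled library of the same oxygen state. COX8A (chromosome 11, 63742079 to 63744015, plus strand), a small membrane-spanning subunit, had 229 FPKM in N-scr against 175 in H-scr, and 214 in N-si against 142 in H-si. COX5B, a zinc-binding subunit of the matrix side, had 142 in N-scr against 139 in H-scr, and 190 in N-si against 159 in H-si. COX5B was the member of these 6 that was higher in both TET1-si libraries than in the scrambled ones.

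The order of the levels changed between libraries. COX6A1 stood first in H-scr, and COX4I1 stood first in the other libraries. COX7A2 and COX6A1 could not be placed apart in N-scr or in H-si, where their counting intervals overlapped. COX6B1 stood at place 4 in both scrambled libraries and at place 6 in both TET1-si libraries, below COX8A and COX5B. The intervals of all other neighbours among these 6 genes lay apart in each library. They are exact 95% intervals on approximate reads and cover counting error only.

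**Figure D1:**
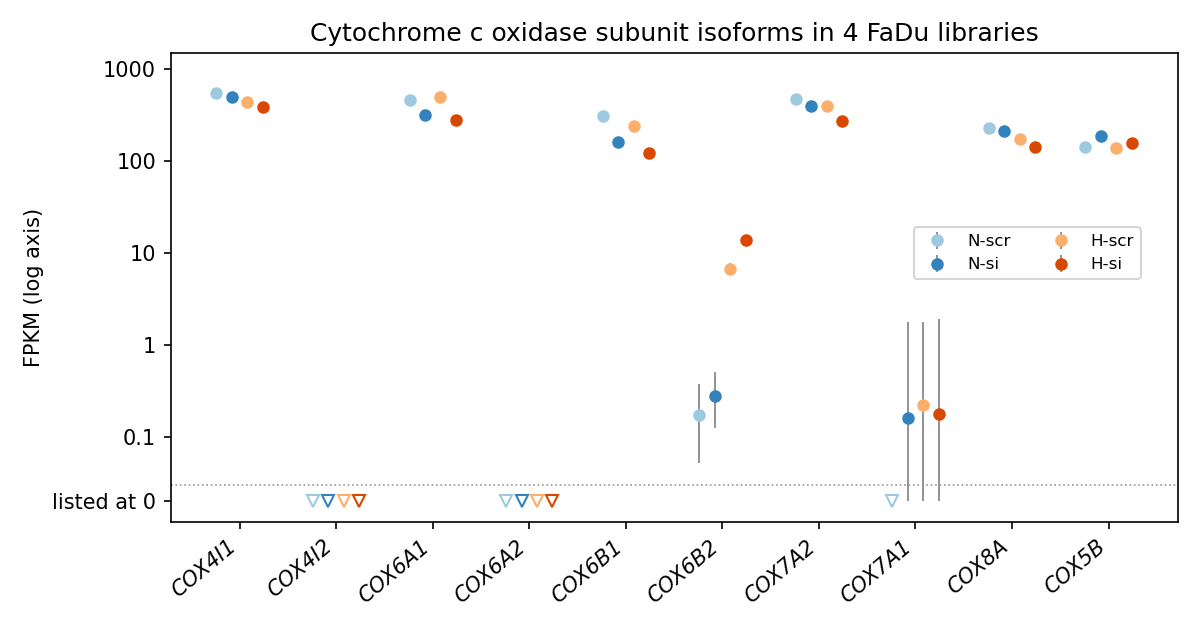
FPKM of the 10 cytochrome c oxidase genes in the 4 libraries (log axis; triangles mark genes listed at 0). Bars are exact 95% counting intervals, mostly smaller than the points. The 6 common genes sit between 123 and 551 FPKM in every library, and COX6B2 moves from 0.172 and 0.282 in the normoxia libraries to 6.81 and 13.9 in the hypoxia libraries.

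COX6B2 (ENSG00000160471, chromosome 19, 55860674 to 55866182, minus strand, hg19) was the member with the widest range. Its FPKM was 0.172 in N-scr against 6.81 in H-scr, and 0.282 in N-si against 13.9 in H-si. Both hypoxia libraries lay above both normoxia libraries, and the TET1-si library was the higher in each oxygen state. With the canonical transcript of 1566 bases these values correspond to about 5 reads (N-scr), 225 reads (H-scr), 9 reads (N-si) and 424 reads (H-si). The ratio of hypoxia to normoxia was 39.5 in scrambled cells, with a counting interval on the log2 scale from 4.15 to 7.03. In TET1-si cells it was 49.4, with an interval from 4.74 to 6.81. The difference between the hypoxia responses of TET1-si and scrambled cells was 0.53 on the log2(FPKM + 0.1) scale and was not tested. It depends on the pseudocount, since the normoxia values rest on few reads. The log2 responses of scrambled and TET1-si cells were 5.31 and 5.63 without a pseudocount, and 2.74 and 3.54 with a pseudocount of 1. The ratios of hypoxia to normoxia chose the set and are no independent evidence of a response.

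The TET1-si comparison of COX6B2 rested on many more reads in hypoxia than in normoxia. Under hypoxia H-si was 2.04 times H-scr, with a log2 interval from 0.79 to 1.27. Under normoxia N-si was 1.63 times N-scr, but the interval ran from -0.98 to 2.68, so no difference was detectable at this depth. Annotated coding transcripts of COX6B2 range from 479 to 2083 bases, and the approximate reads depend on the length taken. With the shortest, a length tried after the values were seen, N-scr and N-si held about 1 and 2 reads and the hypoxia libraries about 44 and 84. The lower bounds of the hypoxia response then fell to 2.81 (scrambled) and 3.61 (TET1-si), and that of the TET1-si response under hypoxia to 0.51.

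Reads of COX6B2 could be shared with other places in 2 ways. Bases 904 to 1477 of its canonical transcript matched 804017 other places in the genome over at least 100 bases, as a dispersed repeat does, but none of these reached 95% identity. No other part of the transcript had such a match. COX6B2 also overlaps the gene model CTD-2105E13.6 on the same strand, whose FPKM was 0.0332 in N-scr, 0.0171 in N-si and under that in both hypoxia libraries. Adjacent genes did not share the pattern. SUV420H2, a histone methyltransferase gene 1185 bases to the left, had 16.9 FPKM in N-scr against 16 in H-scr, and 19.2 in N-si against 16.7 in H-si. FAM71E2, 93 bases to the right, was at or near 0 in all 4 libraries. Among markers of testis and germ cells, where COX6B2 is known, 5 of 8 (DDX4, DAZL, PRM1, PRM2 and TNP1) were listed at 0 in every library, though a listed 0 can be a failed estimate. SYCP3 had 1.03 FPKM in N-scr against 1.46 in H-scr, and 0.414 in N-si against 0.308 in H-si. ACRV1 lay between 0.348 and 0.502, and LDHC was above 0 only in N-scr (0.0795). The summed FPKM of the 8 was 1.53 in N-scr against 1.81 in H-scr, and 0.916 in N-si against 0.659 in H-si.

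Within a library the balance of COX6B2 and COX6B1 does not depend on how that library was scaled. COX6B2 made up 0.0562% of the summed FPKM of the pair in N-scr (95% interval 0.0171 to 0.123) and 0.172% in N-si (0.076 to 0.317). Under hypoxia its share was 2.76% in scrambled cells (2.40 to 3.16) and 10.1% in TET1-si cells (9.09 to 11.3). The normoxia intervals overlapped each other, and the hypoxia intervals lay above them and apart. COX6B1 was 1778 times COX6B2 in N-scr and 8.87 times in H-si. On the log2(FPKM + 0.1) scale the balance moved towards COX6B2 with hypoxia, by 5.02 in scrambled and by 5.6 in TET1-si cells. It moved by 1.98 with TET1-si under hypoxia, to which COX6B2 gave 1.02 and the lower level of COX6B1 gave 0.96. Summed over the pair, FPKM was 306 in N-scr against 247 in H-scr, and 164 in N-si against 137 in H-si, so the sum followed COX6B1.

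**Figure D2:**
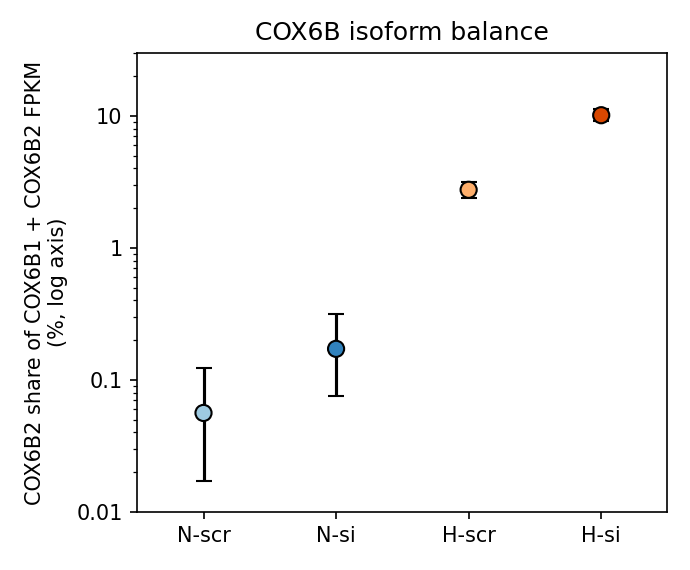
Share of COX6B2 in the summed FPKM of COX6B1 and COX6B2 in each library (percent, log axis; 1 library per group). Bars are exact 95% counting intervals. The share is 0.0562% and 0.172% in the normoxia libraries and 2.76% and 10.1% in the hypoxia libraries. The TET1-si value is the higher each time, but the normoxia intervals overlap.

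The tissue isoforms of the other pairs stayed at or near 0. COX4I2 (chromosome 20, 30225691 to 30232809, plus strand), the hypoxia and lung isoform, was listed at 0 in all 4 libraries. At this depth 3 reads of its transcript would give between 0.269 and 0.292 FPKM, but since a listed 0 can be a failed estimate, this sets no upper limit on its level. BCL2L1, the apoptosis regulator 19445 bases to its right, was measured in every library at 33.0 to 53.5 FPKM, and the microRNA gene MIR3193 on its left was listed at 0. COX6A2 (chromosome 16, 31439052 to 31439967, minus strand), a muscle isoform, was also listed at 0 throughout, with 3 reads worth 0.768 to 0.833 FPKM. COX7A1 (chromosome 19, 36641824 to 36643771, minus strand), the other muscle isoform, was listed at 0 in N-scr against 0.222 in H-scr, and 0.163 in N-si against 0.178 in H-si. These values lie below what 3 reads would give (0.961 to 1.04 FPKM), so no difference of COX7A1 between libraries was detectable. CAPNS1, a calpain subunit gene 568 bases to its left, had 481 FPKM in N-scr against 447 in H-scr, and 263 in N-si against 283 in H-si, and the pseudogene AC002984.2 on its right had at most 0.174. Of the 7 striated muscle markers, MYH2, MYH7 and MYL1 were listed at 0 in every library. TNNT3, a fast troponin T, was the 1 of them above a mean of 1 FPKM, with 0.492 FPKM in N-scr against 9.14 in H-scr, and 0.161 in N-si against 13.4 in H-si. Markers of lung fibroblasts and smooth muscle summed to 7.97 FPKM in N-scr against 32.4 in H-scr, and 16.5 in N-si against 39.6 in H-si, with most of it from the collagen gene COL1A1. The part of these markers in the COX values was not tested.

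Processed copies of the members exist in the genome, and how reads that fit several places were counted is not stated. The closest copy was that of COX6A1, whose whole transcript of 537 bases matched chromosome 6, 37012622 to 37013158 (GRCh37), at 98.7% identity. The pseudogene row there, COX6A1P2, had 0.366 FPKM in N-scr against 0.455 in H-scr, and 0.114 in N-si against 0.124 in H-si. COX7A2 had a copy at 94.2% over 429 bases on chromosome 4, COX6B1 at 90.4% over 428 bases on chromosome 7 and COX4I1 at 87.9% over 695 bases on chromosome 14. Of 17 pseudogene rows named after a member, 4 were above 0 in any library, and the highest value was 1.73 FPKM (COX5BP6). The levels of COX6A1 and COX7A2 are accordingly uncertain where reads could go to either place. COX6A1 also overlaps GATC, which encodes a subunit of a mitochondrial amidotransferase and was listed at 5.04 FPKM in N-scr against 3.63 in H-scr, and 0.623 in N-si against near 0 in H-si. COX4I1 overlaps EMC8 on the other strand, at 20.6 to 50.5 FPKM. COX8A overlaps the noncoding AP000721.4, which had at most 0.160.

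Counts of changed members were read against all genes. There were 7 members that had a mean FPKM of at least 1 and a change of 1 on the log2(FPKM + 0.1) scale was counted as 2-fold. COX6B2 passed this minimum only through its hypoxia libraries, which partly chose it (0.172 FPKM in N-scr and 0.282 in N-si). Its calls below are thus a description and no result about the members. COX6B2 was the 1 member at least 2-fold higher with hypoxia in scrambled cells, against 12.9% of the 15057 genes tested, and 0 were 2-fold lower, against 4.53%. In TET1-si cells the hypoxia counts were again 1 higher (COX6B2) against 12.5% and 0 lower against 8.66%. With TET1-si under hypoxia 1 member was higher (COX6B2) against 12% and 0 lower against 8.35%. With TET1-si under normoxia 0 were higher against 12.1% and 0 lower against 5.56%. COX6B1 was near the limit in both, with changes of -0.96 and -0.91. After median-of-ratios scaling, the TET1-si counts were 0 higher and 1 lower (COX6B1) in both oxygen states, and that scaling changed the split of all genes from 1807 higher and 1258 lower to 1478 and 1524 under hypoxia and from 1828 and 837 to 1419 and 1115 under normoxia.

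Smaller shifts ran mostly downward with hypoxia. In scrambled cells 5 of the 7 members were lower, against 46.4% of all genes, with a median of -0.25 against 0.05 over all genes. COX8A fell by 0.39 (interval -0.50 to -0.28), COX6B1 by 0.35 (-0.45 to -0.26), COX4I1 by 0.32 (-0.37 to -0.27) and COX7A2 by 0.25 (-0.33 to -0.17). COX5B changed by -0.03, and its interval from -0.13 to 0.07 included 0. COX6A1 was 0.10 higher (0.03 to 0.16). In TET1-si cells 6 of 7 members were lower, against 47.8% of all genes, with a median of -0.36 against 0.03. The decreases there ran from -0.20 for COX6A1 to -0.60 for COX8A, and each counting interval lay below 0. COX6A1 thus had values of opposite sign in the 2 knockdown states, 0.10 and -0.20. Both were small beside the effect of scaling, which the intervals do not cover. The scrambled value was 0.05 after median-of-ratios scaling, and the TET1-si value was -0.07 after rescaling to TPM.

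The rest of complex IV gave the wider frame, beside 46.4% of all genes lower with hypoxia in scrambled and 47.8% in TET1-si cells. Of the other nuclear-encoded subunits, 6 were tested and all 6 were lower with hypoxia in both knockdown states, with medians of -0.57 and -0.75. COX7B fell by 0.75 in scrambled cells, NDUFA4 by 0.73, COX5A by 0.60, COX6C by 0.54 and COX7C by 0.53, while COX7A2L, which helps join complexes III and IV, changed by -0.11. COX7B2 was listed at 0, and COX8C and NDUFA4L2 stayed below 1 FPKM. Of the mitochondrially encoded core subunits, MT-CO1 was higher with hypoxia in both knockdown states, by 0.22 (scrambled) and 0.16 (TET1-si). MT-CO2 changed by -0.10 and MT-CO3 by 0.04 in scrambled cells, where both counting intervals included 0, and by -0.15 and -0.21 in TET1-si cells. Of 25 genes for assembly and for copper or heme delivery, 21 were lower with hypoxia in scrambled and 19 in TET1-si cells. SELRC1 (-1.38) and SLIRP (-1.35) were lowest there, and SURF1 (0.39) and COX19 (0.16) highest. Among 6 oxygen-dependent regulators 4 were lower in each knockdown state. CHCHD10 changed by -1.48 in scrambled cells, HIGD1A by -0.54, CHCHD2 by -0.36 and LONP1, the mitochondrial protease that degrades COX4I1, by -0.30. RBPJ (0.31) and HIGD2A (0.16) were higher. In these bulk samples fewer cells with a transcript and less of it per cell cannot be told apart.

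**Figure D3:**
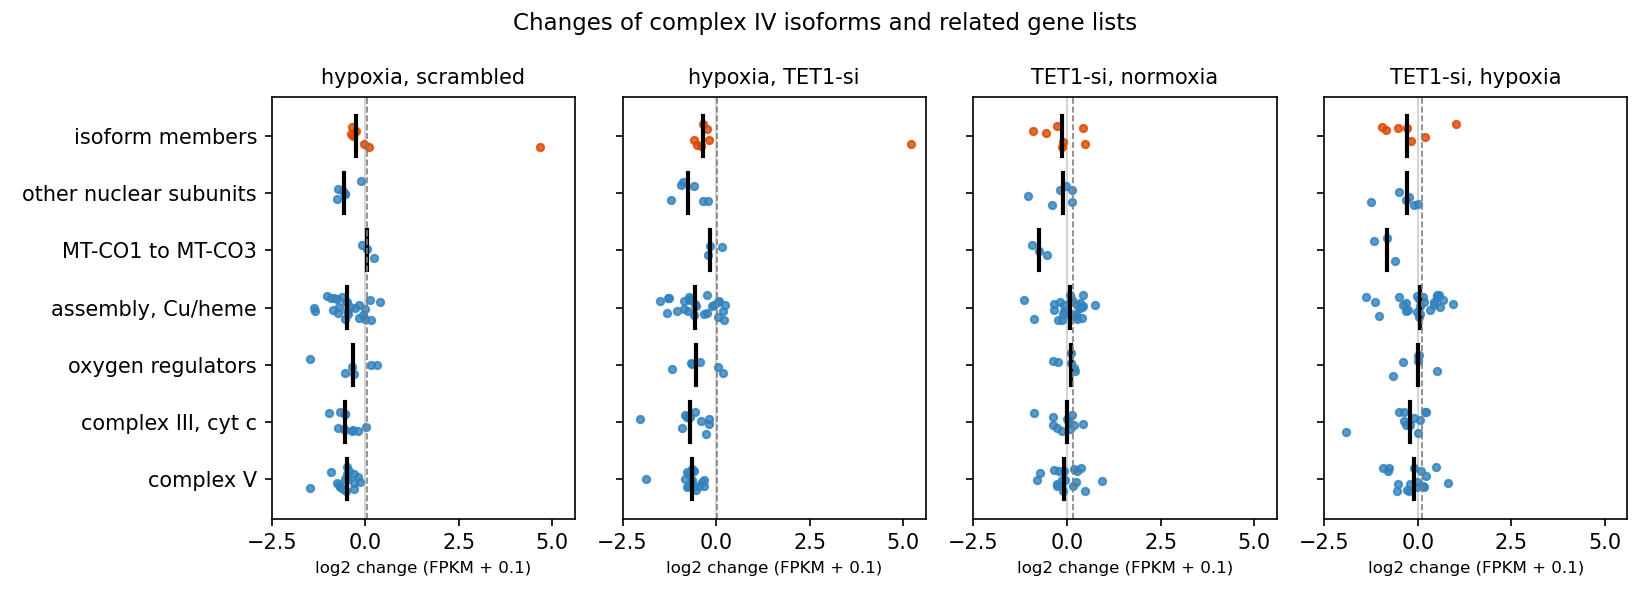
Changes on the log2(FPKM + 0.1) scale in the 4 contrasts for the isoform members (orange) and 6 related gene lists (blue), each point 1 gene with a mean FPKM of at least 1. Black bars are list medians and dashed lines the median of all 15057 genes. The member far to the right in both hypoxia panels is COX6B2, at 4.67 and 5.20, while the medians of the other nuclear subunits lie at -0.57 and -0.75.

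With TET1-si, 5 of the 7 members were lower under hypoxia, against 42.9% of all genes, and 5 were lower under normoxia, against 39%. The medians were -0.30 under hypoxia against 0.10 over all genes, and -0.13 under normoxia against 0.15. COX6B1 and COX6A1 had the lowest values in both states. COX6B1 changed by -0.96 (interval -1.09 to -0.84) under hypoxia and by -0.91 (-1.02 to -0.80) under normoxia. COX6A1 changed by -0.85 (-0.93 to -0.77) and by -0.55 (-0.62 to -0.47). COX7A2 changed by -0.53 under hypoxia and -0.26 under normoxia, and COX4I1 by -0.18 and -0.13. COX8A changed by -0.30 under hypoxia and by -0.10 under normoxia, where its interval from -0.20 to 0.01 included 0. COX5B was higher, by 0.20 (0.10 to 0.30) under hypoxia and 0.42 (0.33 to 0.52) under normoxia. The mitochondrially encoded subunits were lower in both states, with medians of -0.82 and -0.76. NDUFA4, a further subunit of the enzyme, changed by -1.25 and -1.04. The hypoxia and TET1-si contrasts share libraries, so their values are given side by side only.

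TET1-si responses were set beside those of neighbouring genes, since earlier results of these data had such responses going together along chromosomes. COX6B1 (ENSG00000126267, chromosome 19, 36139125 to 36149763, plus strand, hg19) lay among genes with low TET1-si values. Of its 50 nearest tested protein-coding genes, between 33571786 and 37096178, 41 were lower under hypoxia and 37 under normoxia, with medians of -0.76 and -0.65. COX6B1 itself stood 0.20 below its neighbours' median under hypoxia (a difference of -0.20) and 0.26 below it under normoxia (-0.26). COX5B (ENSG00000135940, chromosome 2, 98262503 to 98264846, plus strand) lay among genes with high values, of which 6 and 5 of 50 were lower and the medians were 0.58 and 0.67. Measured against them COX5B stood at -0.39 and -0.25, below its surroundings although above 0. COX6A1 (ENSG00000111775, chromosome 12, 120875893 to 120878545, plus strand) stood at -0.62 under hypoxia and -0.36 under normoxia against neighbours with medians of -0.23 and -0.19. COX7A2 stood at -0.63 and -0.35 against its neighbours, COX8A at -0.51 and -0.41 and COX4I1 at -0.31 in both states. COX6B2 stood above its neighbours, by 0.74 under hypoxia and 0.31 under normoxia, where its own neighbours had medians of 0.28 and 0.18. Its normoxia value of 0.49 rests on about 5 and 9 reads and was 0.13 with a pseudocount of 1. The place of COX6B2 against its neighbours under normoxia is thus not settled. What sets the values of a stretch was not tested, and a response of single genes and of the region cannot be told apart with 1 library per group.

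**Figure D4:**
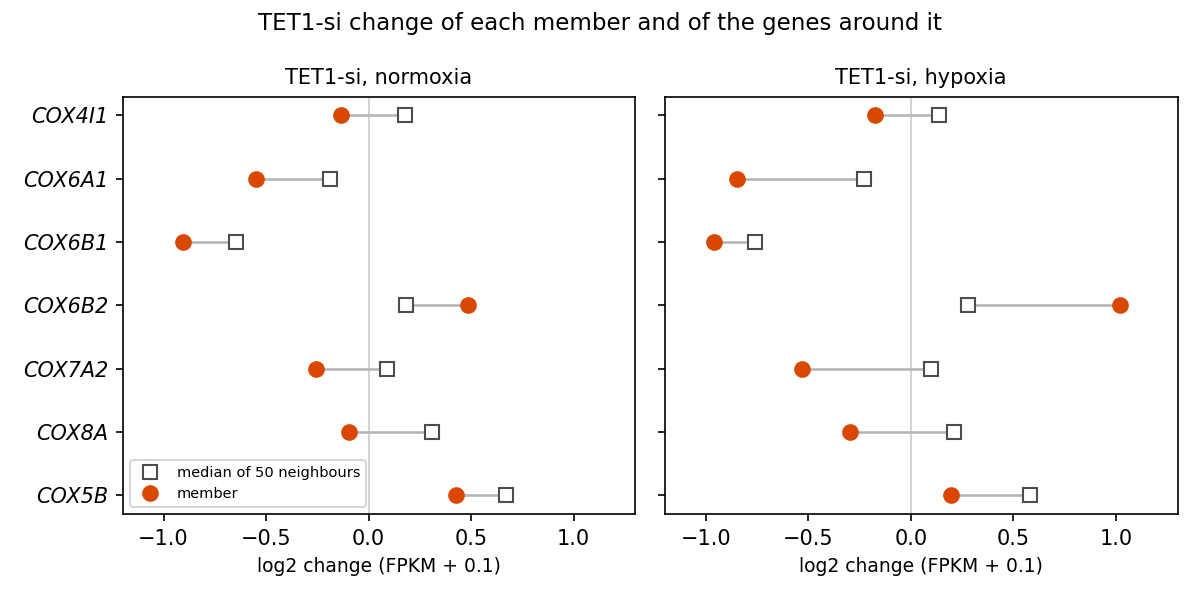
TET1-si change of the 7 members with a mean FPKM of at least 1 (circles) and the median of the 50 nearest tested protein-coding genes (squares), in normoxia and hypoxia, on the log2(FPKM + 0.1) scale. The squares for COX6B1 lie at -0.65 and -0.76 and those for COX5B at 0.67 and 0.58. All members but COX6B2 lie to the left of their neighbours. The normoxia value of COX6B2 rests on about 5 and 9 reads.

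The promoters of the COX6B pair are shown because the isoforms differed in their hypoxia values. Promoter sequences from RefSeq (GRCh38.p14) were matched for 8 of the 10 members, and the 250 bases before the start were searched on both strands for ACGTG and GCGTG, the core of the hypoxia response element bound by hypoxia-inducible factors. Matches are in capitals.
COX6B1 (chr19:35648073-35648322, plus strand): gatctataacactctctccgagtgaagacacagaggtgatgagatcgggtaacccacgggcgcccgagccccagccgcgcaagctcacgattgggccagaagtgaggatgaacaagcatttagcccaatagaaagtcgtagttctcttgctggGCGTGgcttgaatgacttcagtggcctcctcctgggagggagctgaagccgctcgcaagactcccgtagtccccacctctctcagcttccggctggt
COX6B2 (chr19:55354720-55354969, minus strand): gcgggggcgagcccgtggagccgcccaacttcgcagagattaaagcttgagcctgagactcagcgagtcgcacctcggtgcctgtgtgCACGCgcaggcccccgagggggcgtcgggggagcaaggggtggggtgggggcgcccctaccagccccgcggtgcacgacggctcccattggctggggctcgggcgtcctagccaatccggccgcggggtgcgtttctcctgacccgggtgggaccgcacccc
Each held 1 match, which began 97 bases before the start in COX6B1 and 162 bases before it in COX6B2. Of all 35116 promoters 43.2% held at least 1 match, so its presence sets neither gene apart. COX6A1 also held 1, and COX4I1, COX6A2, COX7A2, COX8A and COX5B held 0. The COX6B2 window had 26 CpG dinucleotides, the target of DNA methylation, and 72.8% G or C, against 14 and 57.6% for COX6B1. The medians over all promoters were 11 and 58.0%, and 19.6% of promoters held at least as many CpG as COX6B2. A match in these windows is a description of the letters and not of binding.

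COX6B2 took a place near the top of the hypoxia responses. It ranked 9 of 11871 protein-coding genes in scrambled and 5 in TET1-si cells, and 1127 in the TET1-si response under hypoxia. The hypoxia ranks rest on about 5 and 9 normoxia reads and on a pseudocount of 0.1. With a pseudocount of 1 its changes were 2.74 and 3.54, and ranks there were not tested. The 5 genes whose profile over the 4 libraries was closest to that of COX6B2, by Euclidean distance of centred log2(FPKM + 0.1) values, were NDRG1 (0.67), ARMCX2 (1.12), TNNT3 (1.23), EGLN3 (1.35) and MAF (1.45). NDRG1, a stress-response gene, had 15.9 FPKM in N-scr against 497 in H-scr, and 28.0 in N-si against 579 in H-si. EGLN3, an oxygen-sensing prolyl hydroxylase, had 2.62 in N-scr against 62.9 in H-scr, and 5.68 in N-si against 57.9 in H-si. NDRG1 shared with COX6B2 the listed order of all 4 libraries, whereas EGLN3 was highest in H-scr. The normoxia libraries of COX6B2 could not be told apart at this depth, so that part of the order is uncertain. ARMCX2 had 4.53 and 6.77 FPKM in H-scr and H-si, and the transcription factor MAF 2.0 and 3.73. The likeness rests on 4 libraries and on the contrast that chose COX6B2. With a minimum mean FPKM of 5 it kept 3 of the 5 genes, and with a pseudocount of 1 it kept 2.

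The study took a gene as TET1-regulated when its FPKM in H-scr exceeded both 2 times that in H-si and that in N-scr, and when N-si did not exceed N-scr. Of the 10 members 0 met all 3. The share of all genes that meet them was not computed here, so this count is a description and no result about the members. COX6B1 and COX6A1 came near the first, with H-scr 1.95 and 1.80 times H-si. COX6A1 met the other criteria, with H-scr 1.07 times N-scr and N-scr 1.46 times N-si, while COX6B1 was lower in H-scr than in N-scr (0.784 times). COX6B2 met the second criterion and failed the others, since H-scr was 0.489 times H-si and N-scr 0.612 times N-si. Among the other complex IV genes MT-CO3 was the 1 that met all 3, with 214 FPKM in N-scr against 220 in H-scr, and 112 in N-si against 97.1 in H-si.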

How the data were processed

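Values are gene-level FPKM deposited by the authors, who prepared TruSeq mRNA libraries, sequenced 100 bp reads on a HiSeq instrument (single end per the labels, paired end in the study's methods) and ran TopHat and Cufflinks with Ensembl genes on hg19. Versions, filters and the handling of reads that fit several places are not given in the sources used here. Start positions count from 0, so 1 was added. FPKM are not counts, so no count test was run, and with 1 library per group no test between groups was run. Members and gene lists were chosen with earlier results of these data known.

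Depth was recovered from 6352 genes with 1 exon by searching for the depth and length offset that made low values whole reads. Between 97.6% and 97.9% came out whole within 0.05, and the search was tested on simulated data. Approximate reads are the product of FPKM, depth and canonical transcript length (GENCODE v44lift37) less 212 bp, and 95% intervals on them are exact (Clopper-Pearson for ratios, Poisson for levels) and cover counting error only. Changes are differences of log2(FPKM + 0.1). Genes tested had a mean FPKM of at least 1, a chr locus and an ID on 1 row. The 4 contrasts were H-scr against N-scr, H-si against N-si, H-si against H-scr and N-si against N-scr.

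Lists named were other nuclear-encoded and mitochondrially encoded subunits, assembly, oxygen-dependent regulators, complex III with cytochrome c, complex V and 4 marker lists. Named genes were all members, every gene of the subunit and regulator lists, in the others the 2 highest and 2 lowest hypoxia responses in scrambled cells, the 5 profiles nearest COX6B2, genes beside COX6B2, COX4I2 and COX7A1 or overlapping a member, pseudogenes and TET1. PAICS and further markers were named after their values were seen. Transcripts were searched in GRCh37 with BLAST+ 2.17.0. Computation used Python 3.11.15, pandas 2.3.3, SciPy 1.17.1 and Biopython 1.88. Alternatives were other pseudocounts, scalings, thresholds and minimums, and pseudogene rows added to their gene.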

Additional observations from a re-analysis of the deposited data

Results flagged for a closer look

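Genes named here whose responses had opposite signs in the 2 settings are listed with the difference, the second response less the first, on the log2(FPKM + 0.1) scale. None of these differences was tested, since each setting had 1 library. COX6A1 changed with hypoxia by 0.10 in scrambled and by -0.20 in TET1-si cells, a difference of -0.30, and both counting intervals lay apart from 0. These intervals do not cover scaling, which brought the values to 0.05 (median-of-ratios, scrambled) and -0.07 (TPM, TET1-si). MT-CO3 changed by 0.04 and -0.21 (difference -0.25), COX19 by 0.16 and -0.06 (-0.23), UQCRC1 by 0.02 and -0.19 (-0.21) and CAPNS1 by -0.11 and 0.10 (0.21).

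In the TET1-si response, COX5A, a nuclear subunit, changed by 0.12 in normoxia and by -0.50 in hypoxia, a difference of -0.62 with both counting intervals apart from 0. These intervals do not cover scaling, which shifts this response in normoxia by -0.17 (median-of-ratios) and -0.12 (upper-quartile). The sign of the COX5A value in normoxia thus depends on the scaling. CYC1 changed by 0.06 and -0.11 (difference -0.17), HIGD2A by 0.11 and -0.004 (-0.11) and EMC8, which overlaps COX4I1, by 0.08 and -0.77 (-0.86). Of the genes nearest COX6B2 in profile, ARMCX2 changed by -0.89 and 0.57 (1.46), TNNT3 by -1.18 and 0.55 (1.73) and EGLN3 by 1.09 and -0.12 (-1.21). For ARMCX2, EGLN3 and CAPNS1 both counting intervals also lay apart from 0, and for the remaining genes at least 1 of them included 0. Rescaling to TPM shifts the hypoxia response of scrambled cells by 0.12, so the sign of the CAPNS1 value there (-0.11) depends on the scaling.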

How the results depend on the processing

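No member whose counting interval excluded 0 changed direction under any pseudocount or scaling tried. The members' median with hypoxia in scrambled cells was -0.13 after rescaling to TPM, and in TET1-si cells it was -0.22 after TPM and -0.25 after upper-quartile scaling. With TET1-si under normoxia it was -0.086, -0.30 and -0.25 after TPM, median-of-ratios and upper-quartile scaling. Scaling moved the median of all genes by up to 0.13 (TPM, hypoxia in TET1-si cells) and -0.15 (median-of-ratios, TET1-si under normoxia). The count of members higher with TET1-si under hypoxia was 0 with a pseudocount of 1 and after median-of-ratios or upper-quartile scaling, where 1 member (COX6B1) was lower in both oxygen states. A 1.5-fold threshold gave 2 members lower with TET1-si under hypoxia, 1 under normoxia and 1 with hypoxia in TET1-si cells. With no minimum, COX7A1 raised the counts of higher members to 2 with hypoxia in scrambled cells and to 1 with TET1-si under normoxia, from values listed at 0. The shares of all genes with a pseudocount of 1, at the 1.5-fold threshold or with no minimum were not computed. The member counts at those settings are thus descriptions only.

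The COX6B balance moved by 3.09 and 3.94 with hypoxia in scrambled and TET1-si cells at a pseudocount of 1. With the shortest COX6B2 transcript, chosen after seeing the data, the lower bounds were 3.61 for hypoxia in TET1-si cells, 0.51 for TET1-si under hypoxia and -3.36 under normoxia. List medians near 0 changed sign: mitochondrially encoded subunits with hypoxia in scrambled cells (-0.013, median-of-ratios); assembly with TET1-si under hypoxia (-0.075 median-of-ratios, -0.0098 upper-quartile) and normoxia (-0.0896, -0.042); oxygen-dependent regulators with TET1-si under hypoxia (0.067, TPM) and normoxia (-0.057 median-of-ratios, -0.0091 upper-quartile); complex III with TET1-si under normoxia (0.042, TPM). No paired analysis was possible because each group has 1 library, and no replicate could be left out.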

Other observations

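Most transcripts for the complexes on either side of cytochrome c oxidase were lower with hypoxia. Of all genes tested 46.4% were lower with hypoxia in scrambled and 47.8% in TET1-si cells. Of 11 genes of complex III and cytochrome c, 10 were lower in scrambled and 11 in TET1-si cells, with medians of -0.54 and -0.69. CYCS, the electron carrier that feeds complex IV, had 259 FPKM in N-scr against 132 in H-scr, and 142 in N-si against 34.5 in H-si, and CYC1 changed by -0.73 in scrambled cells, while UQCRC1 (0.02) and UQCR11 (-0.19) were highest. All 17 genes of complex V, the ATP synthase, were lower in both knockdown states, with medians of -0.48 and -0.65. ATP5G1 (-1.48) and ATP5G3 (-0.92), which encode the same ring subunit, were lowest in scrambled cells, and the mitochondrially encoded MT-ATP6 (-0.19) and MT-ATP8 (-0.15) highest. With TET1-si the medians were -0.21 under hypoxia and -0.01 under normoxia for complex III and -0.11 and -0.09 for complex V. The assembly list had medians of -0.49 and -0.57 with hypoxia and 0.05 and 0.08 with TET1-si, and the oxygen-dependent regulators -0.33 and -0.54 with hypoxia.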
